A study of Caenorhabditis elegans with 3 samples.

Results

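Intronic clusters are short stretches of RNA crosslinked to FLAG:DCR-1 that lie inside an intron of a protein-coding gene. They were taken from the authors' cluster lists as nuclear clusters annotated to a coding transcript and an intron, with no exon and none of 7 kinds of annotated noncoding RNA (miRNA, tRNA, snoRNA, snRNA, scRNA, 21U-RNA or ncRNA) on the same strand. The rule kept 14 of the 399 clusters listed for T1/V1 replicate 1, which is called the first T1/V1 library here. It kept 12 of 377 for T1/V1 replicate 2, the second T1/V1 library, and 26 of 1304 for T1 replicate 3, the T1 library. The pooled consensus list held 174 among 4705 clusters, and its stricter conservative version held 113 among 2508. The rule used the annotation and no read value.

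The study crosslinked RNA to DCR-1, the only Dicer enzyme of Caenorhabditis elegans, by PAR-CLIP. In this assay the animals take up 4-thiouridine, ultraviolet light links the labelled RNA to the protein, and the linked base is read as C in place of T. All 3 libraries came from whole young adult worms of a strain rescued with FLAG-tagged DCR-1. The sources used here do not name the promoter of the tagged gene. The groups were lysates cut with RNases T1 and V1 and sequenced with a custom 3' adapter (T1/V1, 2 libraries), and a library labelled T1 alone with the default adapter. Nuclease and adapter changed together and cannot be told apart, and with 1 residual degree of freedom no test between nucleases was made. The labels name no separate cultures, so spreads between libraries may be technical.

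Introns are removed from the pre-mRNA as lariats, which are then debranched and degraded, so intronic RNA is rare beside the mature message. Some introns carry snoRNA or miRNA genes, and transposon copies and inverted repeats inside introns can pair into the double-stranded RNA on which Dicer acts. Dicer cuts miRNA precursors and long double-stranded RNA into small RNAs of a fixed size. RNase T1 cuts single-stranded RNA after G, and RNase V1 cuts base-paired or stacked RNA.

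Intronic clusters were few, most of those in the consensus list were shallow, and a handful of loci carried most of the intronic reads. They held 294 reads in the first T1/V1 library, 292 in the second T1/V1 library and 435 in the T1 library, out of 7829, 10834 and 24992 reads in all clusters. The share of reads was 3.76%, 2.70% and 1.74%, so the T1/V1 libraries had 3.23% ± 0.750 (SD, n = 2). In the consensus list 1852 reads of 92004 (2.01%) were intronic. There, 58 of the 174 clusters had 2 reads and 125 (71.8%) had under 5, beside 55.3% of all consensus clusters. The 24 with at least 10 reads held 1350 reads, or 72.9% of the total. Over all consensus clusters, the 1006 of 4705 with at least 10 reads held 84.4%, and over mRNA exon clusters the 504 of 3361 held 52.6%. The cut takes a different share of clusters in each class, so these values do not rank how concentrated the reads were. In the libraries 42.9%, 33.3% and 53.8% of intronic clusters had under 5 reads, beside 37.8%, 36.1% and 57.4% of all clusters. The median was 7.5, 6 and 4 reads per cluster in the 3 libraries and 3 in the consensus list.

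**Figure D1:**
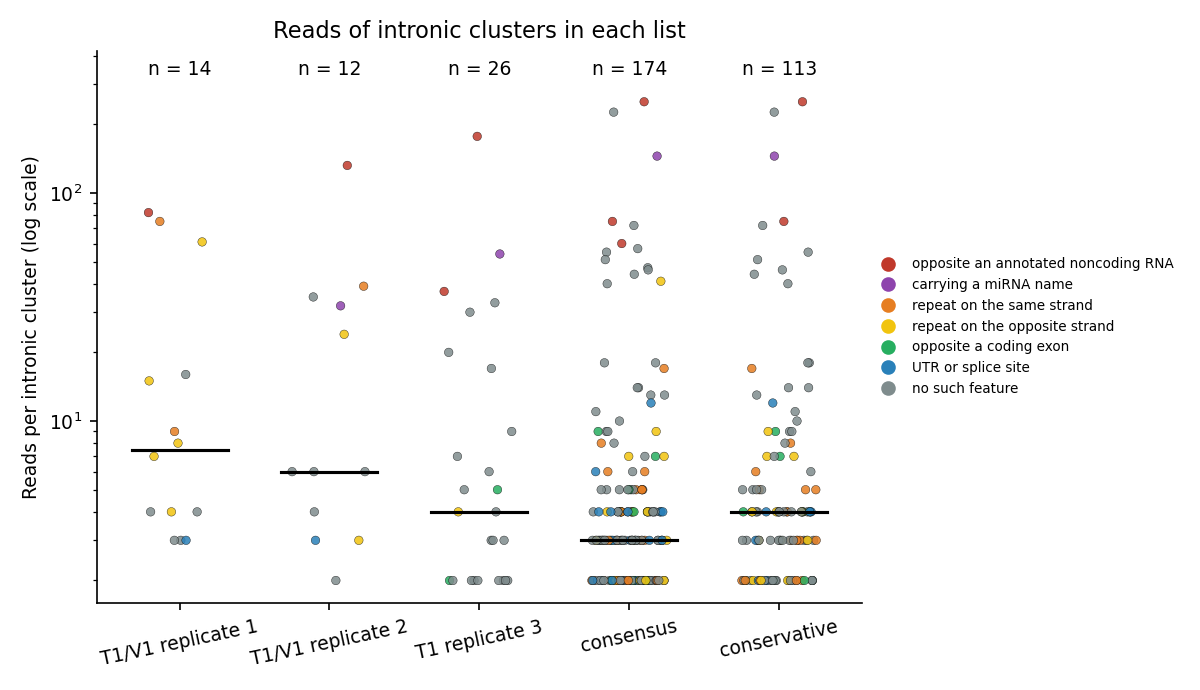
Reads of each intronic cluster (log axis) in the 3 libraries and the pooled consensus and conservative lists, coloured by what else the authors annotated at the position; points are clusters, black lines medians, and n is the number of clusters. The highest cluster in every list lies opposite an annotated noncoding RNA in the potassium channel gene twk-5, while the lowest clusters of the pooled lists sit at 2 reads.

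The clusters were sorted by what else the authors annotated at the same position. Each was counted once, under the first feature that applied. The order was opposite noncoding RNA, miRNA name, same-strand repeat, opposite-strand repeat, opposite coding exon, and UTR or splice site. Of the 174 in the consensus list, 97 carried none of the features considered, and these held 1011 reads (54.6%). A repeat on the same strand marked 22 clusters with 90 reads, and one on the opposite strand marked 19 with 106 reads. Of the rest, 12 lay opposite a coding exon (46 reads) and another 20 carried a UTR or splice-site annotation (68 reads). Counted without this order, 22 of the 174 carried a UTR annotation and 9 a splice site. The 3 clusters opposite an annotated noncoding RNA held 386 reads (20.8%), and 1 cluster with 145 reads carried the name of a miRNA.

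The deepest intronic cluster lay in intron 1 of twk-5 (B0334.2), which encodes a potassium channel subunit of the TWK family, at chrII:11484594-11484672 on the minus strand. It lies opposite the noncoding RNA gene B0334.12, named as a snoRNA in the RefSeq table. It had 82 reads in the first T1/V1 library, 132 in the second T1/V1 library and 177 in the T1 library, and was the only intronic locus called in all 3 libraries. Of its edits, 4 of 37, 23 of 131 and 16 of 173 in the 3 libraries were the T-to-C conversions that mark crosslinking. Per 100 edits these were 10.8, 17.6 and 9.25. Pooled over mRNA exon clusters with at least 10 reads, the values were 38.9, 13.6 and 25.96. The twk-5 share was thus lower in the first T1/V1 library and the T1 library. In the second T1/V1 library it was higher, and close to the 18.3 of all clusters there. Across the lists 38.3% of all reads in library intronic loci came from this one position. The consensus cluster had 251 reads and 19 conversions, fewer than the 391 reads of the 3 library clusters together, and the cause was not tested.

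Choline kinase gene ckb-2 (B0285.9) held the other clusters opposite a noncoding RNA. Both lay in intron 7, at chrIII:4369439-4369537 with 75 reads and 9 conversions, and at chrIII:4369631-4369740 with 60 reads and 2 conversions in the consensus list. The RNA opposite is B0285.12, which the RefSeq table names srpr-1.2. The T1 library was the only library with a cluster here, with 37 reads and 4 conversions at the first position. Pooled over the 3 consensus clusters opposite noncoding RNA, 10.9 of 100 edits were conversions, against 45.1 over the clusters with none of the features considered. These groups differ in depth, with medians of 75 and 3 reads. Over the other intronic consensus clusters with at least 10 reads the value was 38.4.

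The third-ranked consensus cluster carried the name of the miRNA mir-2214, in intron 3 of B0361.11 at chrIII:7278640-7278709 on the plus strand. No cluster was listed in the first T1/V1 library, and there were 32 reads with 2 conversions in the second T1/V1 library and 54 reads with 8 conversions in the T1 library. The consensus cluster had 145 reads and 25 conversions over 70 nt. Its annotation is a name only, without the miRNA class, which is why the rule kept it.

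Among loci with no other feature, Y43F8C.13 stood out in the consensus list. Its cluster, at chrV:19689569-19689604 in intron 5, was 36 nt long with 226 reads and 238 conversions of 484 edits. The libraries held far less of it: 16 reads with 19 conversions in the first T1/V1 library, no cluster in the second T1/V1 library, and 20 reads with 16 conversions in the T1 library. F20D1.3 (intron 2, chrX:14976936-14977004) was similar, with no cluster in the first T1/V1 library, 4 reads and 4 conversions in the second T1/V1 library, 6 reads and 2 conversions in the T1 library, and 72 reads and 85 conversions in the consensus list. In both genes the pooled cluster therefore had several times the reads of the library clusters combined. Why a pooled cluster holds more reads than the library lists was not tested. Absence from a library list means that no cluster was called there, not that no read was present.

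madf-11 (C05D2.6) gave the reverse picture, with library clusters nearly as deep as the pooled one. It had no cluster in the first T1/V1 library, 35 reads with 2 conversions in the second T1/V1 library and 33 reads with 3 conversions in the T1 library, against 46 reads and 8 conversions in the consensus list. At 132 nt (chrIII:5602003-5602134, intron 4) it was among the longest. The longest intronic cluster of the consensus list, 149 nt, lay in intron 2 of trd-1 (T20B12.1) with 40 reads and 34 conversions, and had 6 reads in the second T1/V1 library and 9 in the T1 library. The shortest, 22 nt, lay in sri-30, a gene of a chemoreceptor family, with 3 reads.

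Several further hosts had deep consensus clusters that no library list held, or held thinly. Y77E11A.16 had 57 reads with 4 conversions, nhr-41, a nuclear hormone receptor gene, 55 reads with 26 conversions, and unc-59, which encodes a septin, 51 reads with 23 conversions. F31B12.2 had 47 reads and 1 conversion among 77 edits, the lowest share of conversions of the clusters with at least 10 reads. snrp-200 (Y46G5A.4), the helicase of the U5 snRNP that unwinds spliceosomal RNA, had 44 reads and 14 conversions in intron 9, and 4 reads with 2 conversions in the first T1/V1 library alone among the libraries. hsp-1, the constitutive Hsp70 chaperone gene, had neighbouring clusters of 18 and 13 reads in intron 2. Of the 166 host genes, 8 held a pair of consensus clusters, among them ckb-2, unc-59, hsp-1 and sam-10.

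Host genes of the deep clusters often contain a smaller noncoding gene. In the RefSeq table, 16 of the 21 matched hosts of consensus clusters with at least 10 reads (76.2%, 95% exact interval 52.8 to 91.8%) had a noncoding gene within their span, against 49 of 140 hosts of shallower clusters (35%, 27.1 to 43.5%) and 10.7% of all protein-coding genes. For miRNA, snoRNA, tRNA, snRNA and scRNA genes alone the counts were 10 of 21 (47.6%) and 11 of 140 (7.86%), beside 2.68% of all protein-coding genes. These include a snoRNA gene in twk-5, madf-11, hsp-1, W08G11.3 and rbm-34, a tRNA gene in nhr-41 and snrp-200, and mir-1829.2 in F20D1.3, mir-8205 in unc-59 and mir-2214 in B0361.11. Y43F8C.13 and srd-68, both with deep clusters, had none. Gene length was not accounted for. The table is of another build than the clusters and gives no strand, so its positions could not place clusters on nested genes. The authors' own annotation does so for twk-5 and ckb-2, whose clusters lie opposite the nested gene, and for B0361.11, whose cluster carries the miRNA's name. This comparison was added after the values were seen.

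**Figure D2:**
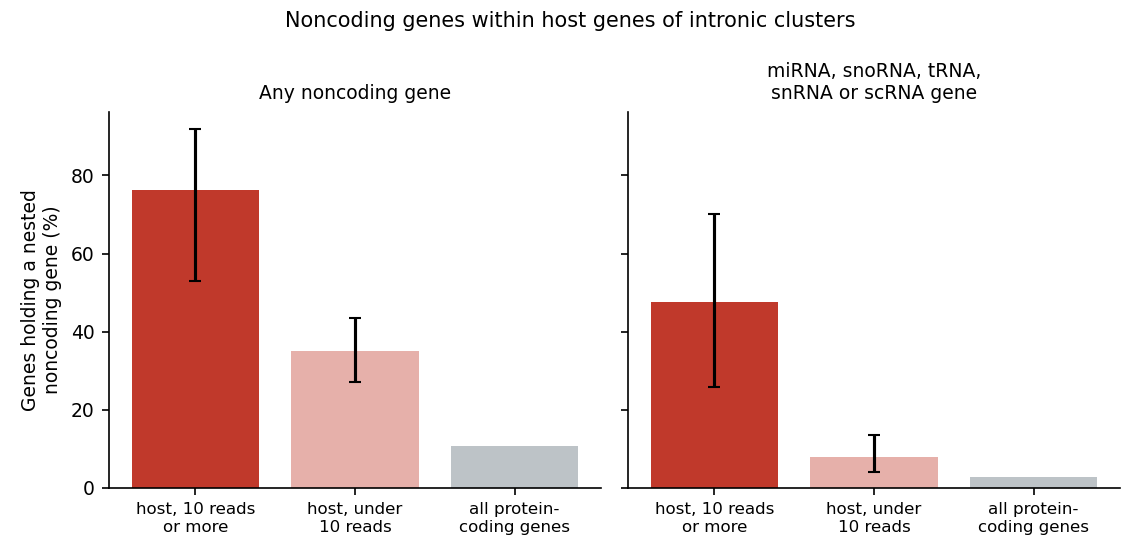
Percentage of host genes that hold a noncoding gene within their span, for hosts of consensus intronic clusters with 10 reads or more (21 genes), hosts of shallower clusters (140 genes) and all protein-coding genes of the RefSeq table; bars are percentages and error bars exact 95% binomial intervals. The left panel counts any noncoding gene (76.2%, 35% and 10.7%) and the right panel only miRNA, snoRNA, tRNA, snRNA and scRNA genes (47.6%, 7.86% and 2.68%).

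Repeats on intronic clusters differed in kind between lists. In the first T1/V1 library, 7 of 14 clusters carried a repeat on either strand, in the second T1/V1 library it was 3 of 12, and in the T1 library it was 1 of 26. All but 1 of those in the T1/V1 libraries were simple repeats of only C or only G. Each of these was annotated as C on the same strand or as G on the opposite strand, so all were runs of C on the cluster's own strand. They held 6 clusters with 175 reads in the first library, 3 clusters with 66 reads in the second library and none in the T1 library, the consensus or the conservative list. Over all clusters of every class there were 27 on such a homopolymer in the first T1/V1 library, 9 in the second T1/V1 library and 0 in the other lists. Clusters on C or G homopolymers thus occurred in both libraries that shared the custom adapter and both RNases, and the part of either in them was not tested.

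The deepest of these clusters was in intron 5 of B0524.1, at chrIII:1908530-1908572, on a stretch of C with a Helitron transposon opposite. It had 75 reads with 33 conversions in the first T1/V1 library and 39 reads with 12 conversions in the second T1/V1 library. tir-1, which encodes a TIR-domain adaptor of innate immune signalling, had 61 reads with 64 conversions and 24 reads with 32 conversions, more than 1 conversion per read in both. K12C11.1 had 15 reads with 15 conversions and 3 reads with 3 conversions. The T1 library and the consensus list held no cluster at any of these 3 loci. The remaining C or G homopolymer clusters, in the transcription factor gene unc-62, the DEAD-box helicase gene mel-46 and eya-1, an eyes absent homologue, had 7 to 9 reads and were in the first T1/V1 library alone.

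In the consensus list the repeats were mostly of other kinds. There, 41 of 174 intronic clusters (23.6%, exact interval 17.5 to 30.6%) carried a repeat, beside 5.04% of all consensus clusters, 22 on the same and 22 on the opposite strand, with 3 counted in both. By kind, 26 lay on transposons or other interspersed repeats with 145 reads and 14 on simple or low-complexity sequence with 50 reads. The deepest was srd-68, a chemoreceptor gene, with 41 reads and 17 conversions opposite a SINE (CELE45). The same element lay opposite the clusters of ptr-24, a patched-related gene (9 reads, 7 conversions), and ddx-46, a DEAD-box helicase gene (7 reads, 4 conversions). PALTTAA3_CE, a DNA transposon sequence, lay on the same strand in eif-2alpha, a translation initiation factor gene (17 reads, 7 conversions), and in sms-1, a sphingomyelin synthase gene (8 reads, 13 conversions). Only 2 of the 24 clusters with at least 10 reads carried a repeat.

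Loci found in more than 1 library held most of the reads of library intronic clusters. Merged by position, the 52 library clusters made 40 loci, of which 11 were found in at least 2 libraries: twk-5 in all 3, 5 loci in the second T1/V1 library and T1, 2 in the first T1/V1 library and T1, and 3 in both T1/V1 libraries. The last 3 are the homopolymer loci B0524.1, tir-1 and K12C11.1, and they are also the only recurring loci that the consensus list lacks. The 29 loci of a single library held 184 reads together (18.0%), the 10 loci of 2 libraries 446 (43.7%), and twk-5 the other 391. Of the 446, the homopolymer loci B0524.1, tir-1 and K12C11.1 held 114, 85 and 18. The share of reads in recurring loci was not computed over all clusters, so it cannot be read as a trait of introns. Other recurring loci were shallow: ZK892.5 had 3 reads in the first T1/V1 library and 7 in the T1 library, and F36H12.3 had 2 reads in the second T1/V1 library and 2 in the T1 library.

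**Figure D3:**
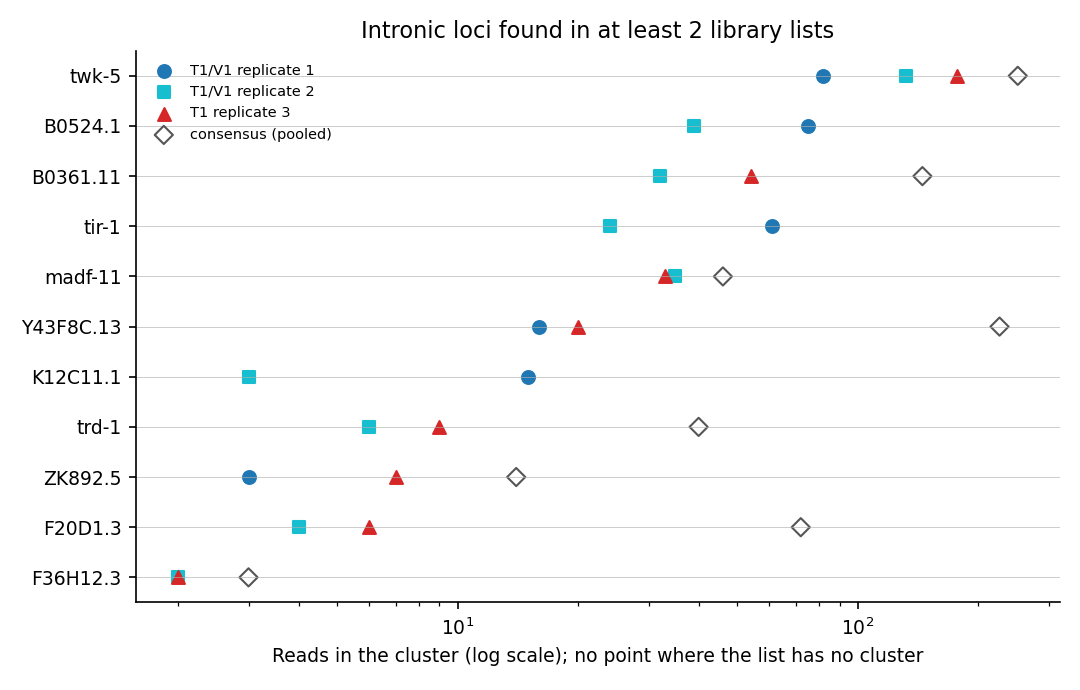
Reads (log axis) of the 11 intronic loci found in at least 2 libraries, by library and in the pooled consensus list; a missing point means that no cluster was listed. Clusters in B0524.1, tir-1 and K12C11.1 appear in both T1/V1 libraries and in no other list, and Y43F8C.13 and F20D1.3 have far more reads in the consensus list than in any library.

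By library, 6 of 14 intronic clusters of the first T1/V1 library overlapped a cluster of another library by at least 1 base on the same strand, where 64.9 percent of all its clusters did. In the second T1/V1 library it was 9 of 12, beside 67.6 percent of all clusters, and in the T1 library it was 8 of 26, beside 23.2 percent. The intronic share was thus below that of all clusters in the first T1/V1 library and slightly above it in the other two. Measured against mRNA exon clusters of the same library, recurrence was higher in introns in each: 42.9%, 75% and 30.8%, against 26.5%, 29.3% and 6.52%. The mean difference was 28.8 percentage points, with exact sign-flip permutation p = 0.25 over 3 libraries, the smallest that 3 allow. This comparison was added after the values were seen. Without the second T1/V1 library, the difference over the remaining libraries was 1.84 points. Between those libraries, introns were lower for clusters of the first T1/V1 library (21.4% against 25.6%) and higher for those of the T1 library (11.5% against 3.64%). The homopolymer loci B0524.1, tir-1 and K12C11.1 are among the recurring clusters of both T1/V1 libraries.

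Seen from the pooled list, most intronic clusters had no counterpart in a library list, and for each library the same held for all consensus clusters. Of the 174, 4 (2.30%) overlapped a cluster of the first T1/V1 library, where 5.29 percent of all consensus clusters did. For the second T1/V1 library it was 6 (3.45%, beside 5.36 percent) and for the T1 library 17 (9.77%, beside 19.6 percent). The intronic share was lower for each library, on few clusters for the T1/V1 libraries. Of the 174, 156 were in no library list and held 885 reads, none with more than 60, and the 18 that were in one held 967. Reads from all 3 libraries backed 43 of the 174 clusters (24.7%), beside 45.0% of all consensus clusters, and conversions from all 3 backed 14 (8.05%), beside 13.2%. Of the 24 clusters with at least 10 reads, 10 were in a library list. Neither this count nor that of clusters in no library list was made over all consensus clusters.

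Conversions were frequent in shallow intronic clusters and sparse in deep ones. Over the consensus list, the pooled share of edits that were conversions was 75.9 per 100 in clusters of 2 reads, 63.2 at 3 to 4 reads, 57.0 at 5 to 9 reads and 34.0 at 10 or more. In that list exon clusters of mRNA fell less over the same range, from 60.2 per 100 at 2 reads to 44.6 at 10 or more. Without the 3 clusters opposite noncoding RNA, the deep intronic clusters had 38.4 per 100. Every listed cluster holds at least 1 conversion, so a cluster with few edits cannot have a low share. Within the deep consensus clusters the spread was wide, from 1.30 per 100 in F31B12.2 and 8.92 in twk-5 to 53.5 in unc-59 and 64.9 in F20D1.3.

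**Figure D4:**
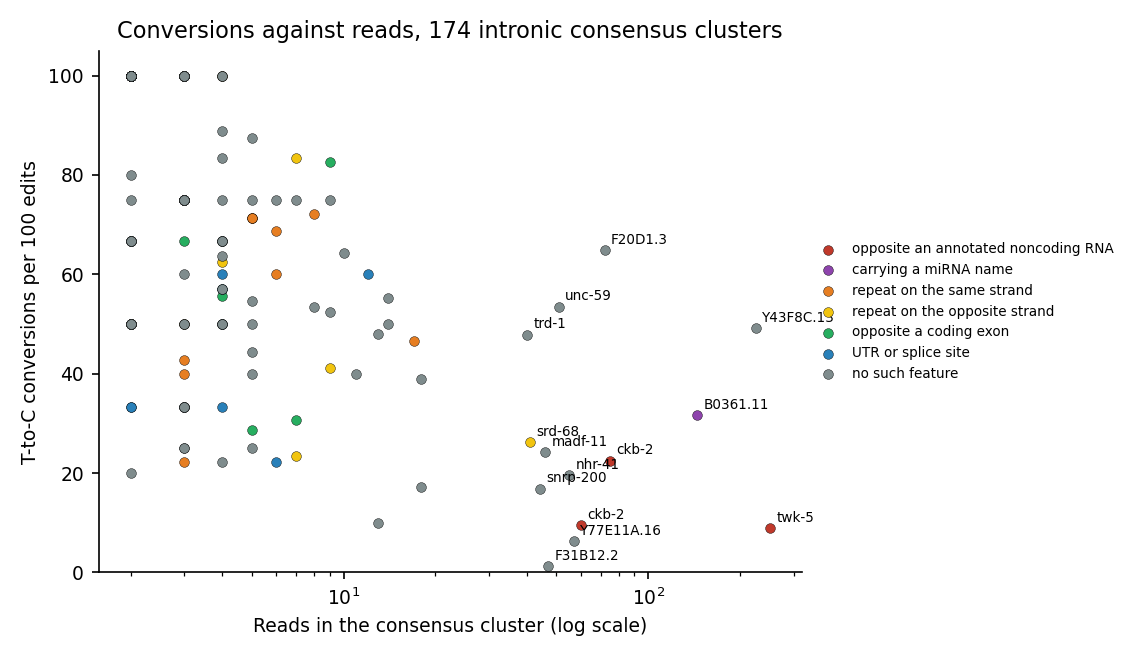
T-to-C conversions per 100 edits against reads (log axis) for the 174 intronic clusters of the consensus list, coloured by other annotation at the position, with the 14 deepest named. Clusters with few reads spread up to 100 per 100 edits, while among the deepest twk-5 and both ckb-2 clusters lie low and F20D1.3, unc-59, Y43F8C.13 and trd-1 lie near or above 50.

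Conversions outnumbered reads in 25 of the 174 intronic clusters (14.4%, exact interval 9.52 to 20.5%) and in 13.4% of mRNA exon clusters of the consensus list. In the libraries this held for 7 of 14, 2 of 12 and 3 of 26 intronic clusters, beside 5.98%, 4.31% and 6.02% of exon clusters. The first T1/V1 library was the highest, and 3 of its 7, in tir-1, unc-62 and mel-46, lay on homopolymers.

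Against mRNA exon clusters of the same library, intronic clusters were deeper in all 3. Their median was 7.5, 6 and 4 reads, against 2, 3 and 3 (mean difference 3.17 reads, exact sign-flip permutation p = 0.25 over 3 libraries, adjusted p = 0.312 over 5 measures). Over all clusters of these libraries the medians were 7, 9 and 4 reads, so introns were not deeper than all clusters throughout. Without C or G homopolymer clusters, an alternative chosen after the data were seen, the intronic medians were 4, 6 and 4 reads and the exon medians 2, 3 and 3. With every cluster kept, median length was 36, 39.5 and 51 nt in introns against 41, 45 and 51 nt in exons (mean difference -3.5 nt, exact p = 0.5). With at least 5 reads per cluster the gap in length widened to -39 nt, with intronic medians of 37.5, 41 and 67.5 nt against 73, 87 and 103 nt (exact p = 0.25). Median conversions were 53.96, 33.3 and 33.3 per 100 edits, against 55.6, 50 and 50 (mean difference -11.6, exact p = 0.25). With at least 5 reads that difference was -1.85 (exact p = 0.75), with medians of 51.9, 23.8 and 27.1 in introns against 50, 25 and 33.3 in exons, so the first T1/V1 library was then higher in introns. In the consensus list the order of the medians was the reverse for reads and for conversions: 3 reads against 4, and 66.7 conversions per 100 edits against 50.

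**Figure D5:**
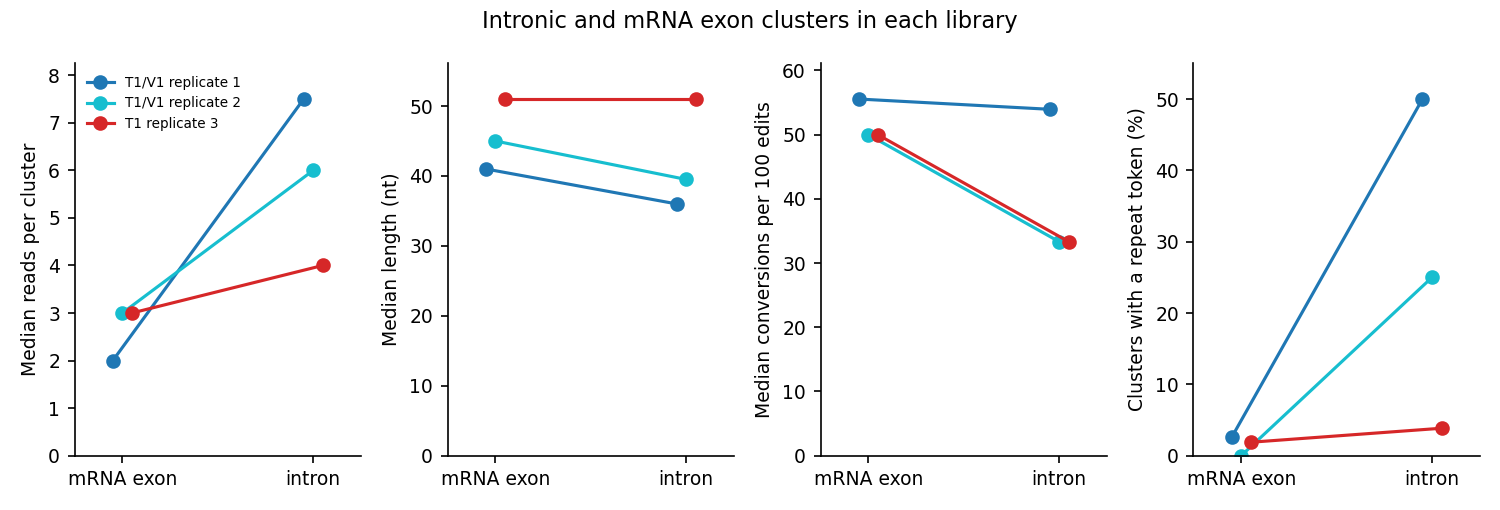
Median reads, median length in nt, median T-to-C conversions per 100 edits and percentage of clusters with a repeat, for mRNA exon and intronic clusters of each library; each line joins the 2 values of 1 library. Reads per cluster are higher in introns in all 3 libraries, and the share with a repeat rises to 50% and 25% in the T1/V1 libraries but only to 3.85% in the T1 library.

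Repeats marked 50%, 25% and 3.85% of intronic clusters in the 3 libraries, against 2.56%, 0% and 1.88% of exon clusters and 11.8%, 6.10% and 3.60% of all clusters. The intronic share in the T1 library was thus close to that of all its clusters. The mean difference was 24.8 percentage points, higher in 3 of 3 libraries, with exact p = 0.25. When clusters on C or G homopolymers were left out, the difference shrank to 4.53 points, with 1 of 8, 0 of 9 and 1 of 26 intronic clusters on a repeat. This alternative was chosen after the data were seen. In the consensus list, which had no intronic cluster on a C or G homopolymer, 23.6% of intronic and 1.61% of exon clusters carried a repeat.

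The intronic share of clusters was 3.51% in the first T1/V1 library, 3.18% in the second T1/V1 library and 1.99% in the T1 library, with exact 95% intervals of 1.93 to 5.82%, 1.66 to 5.49% and 1.31 to 2.91%. The T1/V1 libraries had 3.35% ± 0.230 (SD, n = 2). Fisher's exact test on cluster counts, which compares libraries and not nucleases, gave adjusted p = 0.179 for the first T1/V1 library against the T1 library and 0.275 for the second T1/V1 library against the T1 library, over 24 comparisons. Between the T1/V1 libraries the adjusted p was 0.881. None passed 0.05. Without C or G homopolymer clusters of any class the shares were 2.15%, 2.45% and 1.99%. Intervals cover counting error only.

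The 174 consensus clusters lay on 166 host genes, of which 161 matched the RefSeq table, 153 as protein-coding genes and 8 as pseudogenes. The lowest intron number over the isoforms was 1 for 53 clusters (30.5%), and the median was 3. The hosts were spread over all 6 chromosomes, from 23 clusters on X to 35 on III. In 43 of the 166 hosts (25.9%, exact interval 19.4 to 33.3%) an exon of the same gene also had a consensus cluster, beside 10.5 percent of all protein-coding genes. In the libraries that held for 0 of 14, 0 of 12 and 1 of 26 hosts, beside 0.526, 0.501 and 3.1 percent. Expression of the host genes was not measured here.

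Host genes included few members of the gene groups examined. Of all protein-coding genes, 0.766 percent had an intronic consensus cluster. Of 32 genes of small RNA pathways 3 did, a share above that of all protein-coding genes, though on few reads. dcr-1 itself, which encodes the tagged enzyme, had 5 reads and 3 conversions in intron 6, xrn-2, a 5'-to-3' exoribonuclease that degrades miRNAs in worms, 5 reads and 4 conversions, and eri-3, of the DCR-1 complex that makes endogenous siRNAs, 4 reads and 5 conversions. Of 20 muscle genes 1 did, the perlecan gene unc-52, with 2 reads, so this share is also above 0.766 percent but rests on 1 gene.

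No gene listed in the other groups had an intronic cluster in the consensus list, although each group had exon clusters. Ribosomal protein genes had an exon cluster in 66 of 78 and an intronic one in 0, collagens in 40 of 174 and 0, germline and oocyte genes in 16 of 24 and 0, and vitellogenins, which encode yolk proteins, in 4 of 6 and 0. For the 32 matched of 34 listed genes of pre-mRNA splicing the counts were 10 and 0, but that list did not include snrp-200, a spliceosomal helicase gene whose intron 9 held the 44 reads given above. For 22 chromatin and transcription genes they were 4 and 0, and for 20 neuronal genes 3 and 0. The background of 0.766 percent leaves little room below it for lists of this size, and no test was made.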

How the data were processed

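Bowtie2 2.1.0 is named in the submitters' processing notes, and the sources used here name neither build nor annotation release. Per the file attributes, the authors called clusters at a 5% estimated FDR. Deposited clusters carry a raw count of conversions, reads and edits, and the authors' entropy score, which was not used. Consensus clusters have reads from at least 2 libraries, and conservative ones conversions in at least 2. The pooled lists do not say which libraries, so pooled values carry no SD. The members and gene lists were chosen with earlier results of these data known.

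Members were selected from the authors' annotation tokens. Medians and shares of intronic and mRNA exon clusters were compared over 3 libraries by exact two-sided sign-flip permutation, and library pairs by Fisher's exact test (two-sided). P-values were Benjamini-Hochberg adjusted (Python 3.11.15, SciPy 1.17.1, statsmodels 0.14.6); both were tested on simulated data. Shares carry exact (Clopper-Pearson) 95% intervals. Named loci were drawn from the 15 deepest consensus clusters, the 5 deepest of each library and all recurring library loci. Further sources were the 6 deepest consensus clusters on a repeat, the 5 genes with most clusters, up to 3 per gene list, and the longest and shortest. Loci that met these rules but were not described are phac-1 in the T1 library (30 reads, 12 conversions, no consensus cluster) and 2 consensus hosts. These are M01D7.9 (7 reads, 5 conversions) and B0391.10 (clusters of 6 and 4 reads). W08G11.3, rbm-34, and the homopolymer hosts unc-62, mel-46 and eya-1 were chosen after their values were seen. Gene names and nested genes came from RefSeq (WBcel235), whose coordinates were not used for clusters. Sequences are not shown.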

Additional observations from a re-analysis of the deposited data

How the results depend on the processing

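Depth limits these results: 125 of 174 consensus intronic clusters have under 5 reads, and 6 of 14, 4 of 12 and 14 of 26 in the libraries. With 3 libraries no exact p can go below 0.25. No paired analysis was possible because the T1/V1 libraries are numbered 1 and 2 and the T1 library 3, so the groups share no replicate number. Counting only clusters with no other annotation moved the intronic share to 1.04% (mean of both T1/V1 libraries) and 1.30% (T1 library), and turned the difference between the first T1/V1 library and the T1 library to -0.55 percentage points and that between the T1/V1 replicates to -0.57. With at least 5 reads the latter was -0.094. None of these differences passed 0.05 before or after. The intronic share of pooled clusters was 4.51% in the conservative list, 2.33% with at least 5 reads and 2.01% by reads. Without clusters opposite a noncoding RNA or named for a miRNA, an alternative chosen after seeing the data, the share of reads was 2.71%, 1.18% and 0.668% in the libraries, 1.44% in consensus clusters and 1.28% in conservative ones. With all 3 libraries, 23 of 52 intronic clusters recurred in another library. Leaving out 1 library was added after seeing the data. It left 12 of 38 without the first T1/V1 library, 6 of 40 without the second and 8 of 26 without the T1 library. Removing a library can only lower such counts, and the share over all clusters was not computed. Leaving out 1 T1/V1 library gave an intronic share of 3.18 to 3.51%. Counting only miRNA, snoRNA, tRNA, snRNA and scRNA genes, 10 hosts of deep clusters held a nested gene. The other 33 recomputed values kept their direction or stayed close to the first value. For the 5 measures set against exons this shows only the direction of the mean, since no p under 0.05 was possible, and the conversion difference shrank to -1.85 per 100 edits with at least 5 reads. Without 1 library those differences ranged from 2 to 4.25 reads, 13.5 to 36.2 percentage points for repeats and 1.84 to 24.9 points for recurrence. Causes were not tested.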

Other observations

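An intronic cluster with a cluster on the opposite strand at the same position was found once, in T1/V1 replicate 1, in F59D12.2, with 4 reads opposite 2. None of the 12, 26, 174 or 113 intronic clusters of the other lists overlapped a cluster on the other strand. The share over all clusters was not computed, so this cannot be read as a trait of introns.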
